A study of Mus musculus with 6 samples.

Results

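Ribosomal protein genes encode the protein shell of the cytosolic ribosome, the particle that translates mRNA. Genes named Rpl and Rplp encode proteins of the large subunit, which forms peptide bonds, and genes named Rps and Rpsa encode proteins of the small subunit, which decodes the mRNA. Their mRNAs are among the most abundant of growing cells and carry a pyrimidine-rich stretch at the 5′ end (the terminal oligopyrimidine tract), through which the mTOR kinase and the RNA-binding protein Larp1 set their translation and stability. In CD8 T cells, activation is known to raise ribosome production before division, and effector cells depend on a high rate of protein synthesis.

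The genes were taken by name: every symbol that begins with Rpl or Rps and a number or with Rplp and a number, together with Rpsa, without the S6 kinase genes (Rps6k), without the pseudogene models named -ps and without symbols ending in Rik. This gave 91 of the 26754 genes in the files, of which 53 were named for the large and 38 for the small subunit. One of the 91, Rps19bp1, encodes a nucleolar protein that binds Rps19 and is not a ribosomal protein. The 11 genes too low to be tested were Rps29 and 10 genes named as retrocopies or relatives of others (Rps27rt, Rps3a2, Rps3a3, Rpl37rt, Rps4l, Rps12l1, Rpl6l, Rpl39l, Rpl3l and Rpl22l1). Fau, which encodes a ribosomal protein fused to a ubiquitin-like protein, lies outside the naming rule and is described separately.

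RNA was sequenced from cells that CD8a magnetic beads had retained from tumours of the mouse melanoma line B16, grown under the skin of female C57BL/6J mice aged 6 to 8 weeks when obtained. Tumours were taken on day 14 (3 libraries) or on day 7 (3 libraries) after implantation. All mice carried tumours, the labels name no drug, and no tumour-free group was analysed here. The labels do not say whether libraries came from separate mice or from pooled ones, so p-values measure the spread between these libraries, which may be technical. Values are RPKM, reads per kilobase of gene and per 1000000 reads in genes, as deposited by the authors.

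Libraries held 11385106 to 13316522 reads in genes on day 14 and 6523019 to 9313078 on day 7, and 18318 to 19053 against 13133 to 13806 genes had a read. Day 7 replicates 1 and 2 differed by little more than sampling noise over all genes (median chi-square ratio per fragment 1.11, mean 1.63, where 1 is noise alone), and by more over the ribosomal protein genes (median 2.43). Against day 7 replicate 3 their medians were 40.9 and 44.4 over all genes and 33.6 and 37.3 over the ribosomal protein genes. They were counted as 1 sample, so n = 3 on day 14 and n = 2 on day 7. Every call below has day 7 replicate 3 as one of those 2 samples. Bead-retained cells were a mixture: the 8 melanocyte and B16 marker genes summed to 10457 to 11471 RPKM on day 14 and 5714 to 5932 RPKM on day 7 (3 of 8 tested were called higher and 0 lower). The 12 macrophage and monocyte markers summed to 1357 to 1395 RPKM against 827 to 954 RPKM (5 of 11 tested higher, 0 lower). The 15 T cell markers were at 161 to 177 RPKM on day 14, against 611 to 688 RPKM on day 7 (0 of 13 tested higher, 8 lower). The 7 NK cell markers were at 16.4 to 19.5 RPKM, against 129 to 173 RPKM (0 of 4 tested higher, 4 lower). No marker in any list was at 0 in all 6 libraries. The remaining lists summed to 16.6 to 20.9 against 13.9 to 38.1 RPKM for dendritic cells, 52.3 to 67.0 against 14.2 to 19.6 RPKM for neutrophils and 1782 to 2007 against 1654 to 2114 RPKM for erythroid cells, with 0 called of 1, 1 and 5 tested. B cell, fibroblast and endothelial markers each stayed under 8 RPKM. All ribosomal protein values below are of this mixture, in which fewer cells of a type and less RNA per cell cannot be told apart. The part of these marker differences in the ribosomal protein values was not tested.

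Ribosomal protein genes took a smaller share of the reads on day 14, but not of the summed RPKM of all genes. They took 3.76%, 3.51% and 3.77% of the reads in genes in the 3 day 14 libraries, against 4.34%, 4.28% and 4.42% in the 3 day 7 libraries. Their summed level was 25315, 23570 and 25602 RPKM on day 14, against 28218, 27936 and 29823 RPKM on day 7. Each day 14 library lay below each day 7 library. The RPKM of all genes together also summed to less on day 14, to 442722 to 453146 RPKM, against 515321 to 527689 RPKM on day 7. As a share of that total, ribosomal protein genes held 5.59%, 5.32% and 5.76% on day 14, against 5.48%, 5.29% and 5.77% on day 7, and the days overlapped. The mean sum was 24829 ± 1099.7 RPKM on day 14 (SD, n = 3) and 28950 ± 1234 RPKM on day 7 (SD, n = 2), 14.2% lower on day 14. The log2 difference was -0.22, and the replicate SD on that scale was 0.064. Both subunits had lower sums. Large-subunit genes summed to 16702 ± 724 RPKM on day 14 and 19379.9 ± 803 RPKM on day 7. Small-subunit genes summed to 8127 ± 377 RPKM on day 14 and 9569.9 ± 432 RPKM on day 7 (SD, n = 3 and n = 2). The ratio of the large-subunit to the small-subunit sum was 2.04, 2.06 and 2.06 on day 14, against 2.01, 2.05 and 2.02 on day 7.

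**Figure D1:**
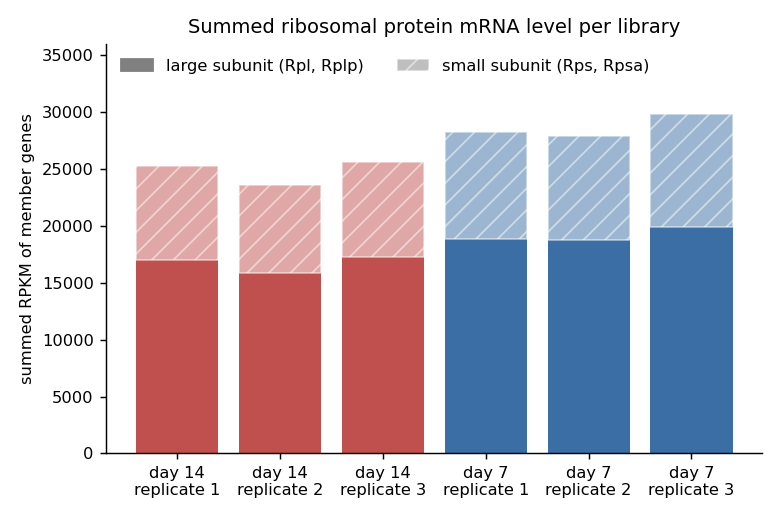
Summed RPKM of the ribosomal protein genes in each library as stacked bars from 0, with the large subunit solid below and the small subunit hatched above, the 3 day 14 libraries left and the 3 day 7 libraries right. Full bars reach 23570 to 25602 RPKM on day 14, all below the 27936 to 29823 RPKM of day 7.

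Single genes spanned a wide range of levels. The mean over the 5 samples ran from 0.077 RPKM (Rpl39l) to 1881 RPKM (Rpl19), with a median of 133 RPKM, and 18 genes exceeded 500 RPKM while 24 were under 50 RPKM. The 10 highest genes held 42.4% of the summed level. The filter for testing, a mean of 20 reads per 1000000 reads in genes (CPM), kept 80 of the 91. Of these, Rps27l (22.1 CPM), Rps28 (24.97 CPM) and Rpl38 (27.8 CPM) lay just inside it while Rps3a2 (15.4 CPM) lay just outside. Spread between replicates was small, with a median coefficient of variation of 6.06% over the day 14 libraries and 10.7% over the 2 day 7 samples. RPKM of ribosomal protein genes depends on the gene model: the model of Rps15a is 6270 bases for a coding sequence of 390 bases. Levels between genes are therefore per model length. Within a gene the length cancels between days, apart from effects of the 1 RPKM added before taking logs and of variance estimates that depend on level.

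None of the 5 genes with the highest levels was called by limma at the settings used. Under median-of-ratios scaling 3 of them were called lower: Rpl19 (adjusted p = 0.0268), Rplp1 (0.0145) and Rpl14 (0.0213). Rpl19, a large-subunit protein near the interface of the subunits, had 1759, 1655 and 1868 RPKM on day 14, against 1964, 1882 and 2202 RPKM on day 7 (log2 fold change -0.23 ± 0.09 SE, limma adjusted p = 0.182). The day 14 libraries were all below the day 7 libraries. Rplp1 had 1379, 1334 and 1466 RPKM on day 14, against 1544, 1567 and 1792 RPKM on day 7 (-0.26 ± 0.08, adjusted p = 0.116). Rpl14 had 1127, 1005 and 1106 RPKM on day 14, against 1197, 1246 and 1228 RPKM on day 7 (-0.18 ± 0.07, adjusted p = 0.177). Both genes again showed no overlap between days, and neither passed the test. Day 14 was below in this way in 17.8% of all genes tested. Rps23, a small-subunit protein at the decoding site, had 1104, 959.8 and 1106 RPKM on day 14, against 1093, 995 and 1202 RPKM on day 7. Rpl23a, which sits beside the exit of the peptide tunnel, had 1008, 930.1 and 1100.3 RPKM on day 14, against 936, 979 and 1145 RPKM on day 7. The days overlapped in both genes, with log2 fold changes of -0.09 and -0.05 (adjusted p = 0.629 and 0.817). Both values were above 0 without day 7 replicate 3.

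Across the 80 tested genes, 14 were called lower on day 14 and 1 higher at a limma adjusted p under 0.05. That is 17.5% lower and 1.25% higher, against a background of 3.18% lower and 1.7% higher among all 6691 genes tested. The median log2 fold change was -0.14 over the ribosomal protein genes, with 28 values above 0 and 52 below, and 0.16 over all genes tested. In 37 of the 80 every day 14 library was below every day 7 library, and in 11 every one was above, against a background of 17.8% and 31.6% of all genes tested. The large subunit had 9 of 48 tested genes called lower and 0 higher, with a median of -0.15, and the small subunit 5 of 32 lower and 1 higher, with a median of -0.13. Without day 7 replicate 3, which leaves 1 day 7 sample, calls other than that of Rpl17 were lost. The median log2 fold change of the ribosomal protein genes was then -0.17. Without day 14 replicate 1 there were 7 lower and 0 higher, without day 14 replicate 2 there were 5 lower and 2 higher, and without day 7 replicate 2 there were 14 lower and 0 higher. Calls depend on how libraries are scaled. Scaling to the summed RPKM of all genes, of which ribosomal protein genes held overlapping shares on the 2 days, was not run. Rescaling libraries by the median ratio over genes moved the median of all genes to 0.021 and that of the ribosomal protein genes to -0.28. With it 21 ribosomal protein genes were called lower and 0 higher, against 286 lower and 65 higher of all genes.

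**Figure D2:**
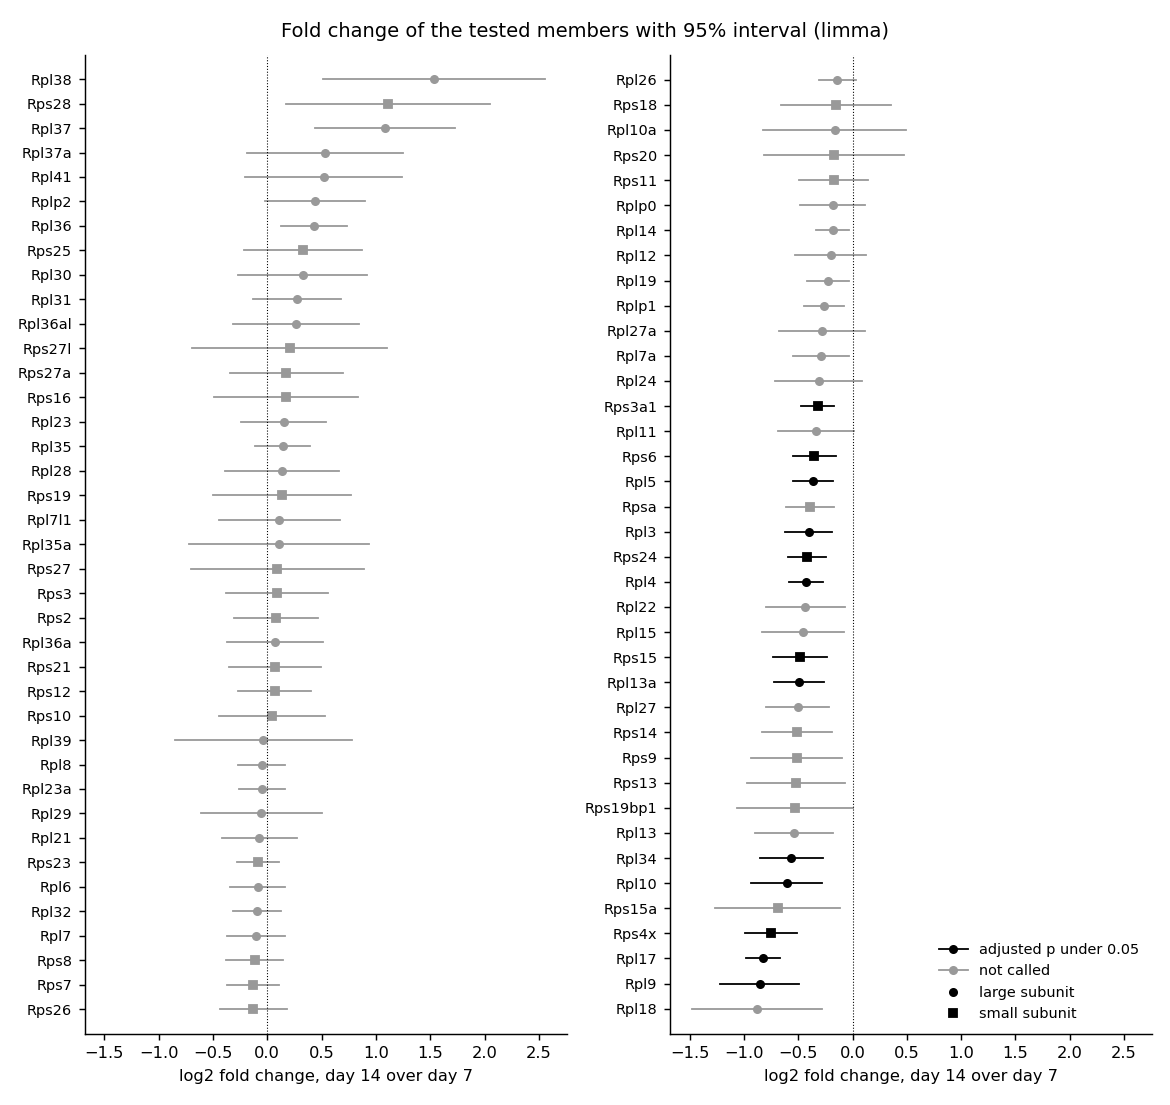
Log2 fold change, day 14 over day 7, of 77 of the 80 tested ribosomal protein genes with its 95% confidence interval from limma, sorted by value, with called genes in black, others in grey, circles for the large and squares for the small subunit. The 13 called genes drawn are all lower (Rpl9 at -0.85 to Rps3a1 at -0.32), and the short-coding genes Rpl38, Rps28 and Rpl37 have the highest point values without passing the test.

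Large-subunit genes held 9 of the 14 decreases. Rpl17, whose protein lines the tunnel through which the new peptide leaves, had 744, 754 and 772 RPKM on day 14, against 1274, 1269 and 1410.0 RPKM on day 7. Its means were 757 ± 14.3 RPKM on day 14 (SD, n = 3) and 1341 ± 98.1 RPKM on day 7 (SD, n = 2). The log2 fold change was -0.82 ± 0.07 (adjusted p = 0.000129). Rpl9, a large-subunit protein near the base of the stalk, had 70.3, 65.9 and 67.5 RPKM on day 14, against 134, 123 and 118 RPKM on day 7 (-0.85 ± 0.16, adjusted p = 0.0136). In both genes all day 14 libraries were below all day 7 libraries. Rpl17 stayed called under each of the alternatives that were run. Rpl9 lost the call only without day 7 replicate 3, a fit left with 1 day 7 sample, where its log2 fold change was -0.91.

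Rpl10, an X-linked gene whose protein is one of the last to join the large subunit, had 135, 141 and 133 RPKM on day 14, against 205, 229 and 201 RPKM on day 7 (-0.61 ± 0.15, adjusted p = 0.0398). Rpl34 had 202, 199.8 and 194 RPKM on day 14, against 271, 272 and 317 RPKM on day 7 (-0.56 ± 0.13, adjusted p = 0.0349). Rpl13a, known in human myeloid cells to leave the ribosome after interferon gamma and to silence inflammatory mRNAs, had 411, 371 and 391 RPKM on day 14, against 585, 564 and 527 RPKM on day 7 (-0.49 ± 0.10, adjusted p = 0.0221). In these 3 genes the days did not overlap. Rpl4, which reaches into the tunnel, had 719, 684 and 693 RPKM on day 14, against 869.6, 935 and 978 RPKM on day 7 (-0.43 ± 0.07, adjusted p = 0.00631). Rpl3, which reaches towards the peptidyl transferase centre, had 514, 476 and 455 RPKM on day 14, against 642, 626 and 637 RPKM on day 7 (-0.40 ± 0.10, adjusted p = 0.0417). Rpl5, which carries the 5S rRNA and, free of the ribosome, binds the p53 regulator Mdm2, had 630.4, 593 and 625 RPKM on day 14, against 852, 818 and 752 RPKM on day 7 (-0.36 ± 0.08, adjusted p = 0.0328). These genes were all lower in each day 14 library. Rpl11, the partner of Rpl5 in that particle, had 111, 114 and 109 RPKM on day 14, against 142, 137 and 142 RPKM on day 7, with no overlap and no call (-0.34 ± 0.16, adjusted p = 0.273).

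The lowest value of the large subunit belonged to a gene that was not called, Rpl18, with 14.9, 13.6 and 14.1 RPKM on day 14, against 23.3, 23.2 and 31.1 RPKM on day 7 (-0.88 ± 0.27, adjusted p = 0.102). The calls of Rpl10, Rpl34, Rpl13a, Rpl3 and Rpl5 were lost without day 7 replicate 3, which leaves 1 day 7 sample. All 5 were also lost without day 14 replicate 2. In the fit without day 7 replicate 3, log2 fold changes were -0.66, -0.45, -0.55 and -0.40 for Rpl10, Rpl34, Rpl13a and Rpl3. Rpl4 lost its call only in that fit.

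The small subunit had 5 called decreases. Rps4x, an X-linked gene, had 285, 272 and 279 RPKM on day 14, against 444, 442 and 497 RPKM on day 7 (-0.75 ± 0.11, adjusted p = 0.00249). Rps15, which is needed for export of the small subunit from the nucleus, had 624, 564 and 620.1 RPKM on day 14, against 746, 721 and 966 RPKM on day 7 (-0.48 ± 0.11, adjusted p = 0.0323). Without day 7 replicate 3, the highest library for Rps15, the log2 fold change was -0.29. Rps24, one of the genes mutated in human Diamond-Blackfan anaemia, fell by 0.42 on the log2 scale (adjusted p = 0.0132), and Rps3a1, beside the mRNA exit, by 0.32 (adjusted p = 0.0235). Rps6, the substrate of the S6 kinases, had 525, 517 and 563 RPKM on day 14, against 685, 679 and 684 RPKM on day 7 (-0.35 ± 0.09, adjusted p = 0.0491). Rpsa, which doubles as a laminin-binding protein, had 414, 392 and 414 RPKM on day 14, against 562, 542 and 514 RPKM on day 7, and was not called (-0.39 ± 0.10, adjusted p = 0.0537), but was by limma-voom (0.00198) and under median-of-ratios scaling (0.0125). None of the 5 called decreases of the small subunit remained without day 7 replicate 3, which leaves 1 day 7 sample. In that fit the log2 fold change was -0.67 for Rps4x and -0.35 for Rps6. Rps15, Rps24, Rps3a1 and Rps6 were also not called without day 14 replicate 1 or without day 14 replicate 2.

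**Figure D3:**
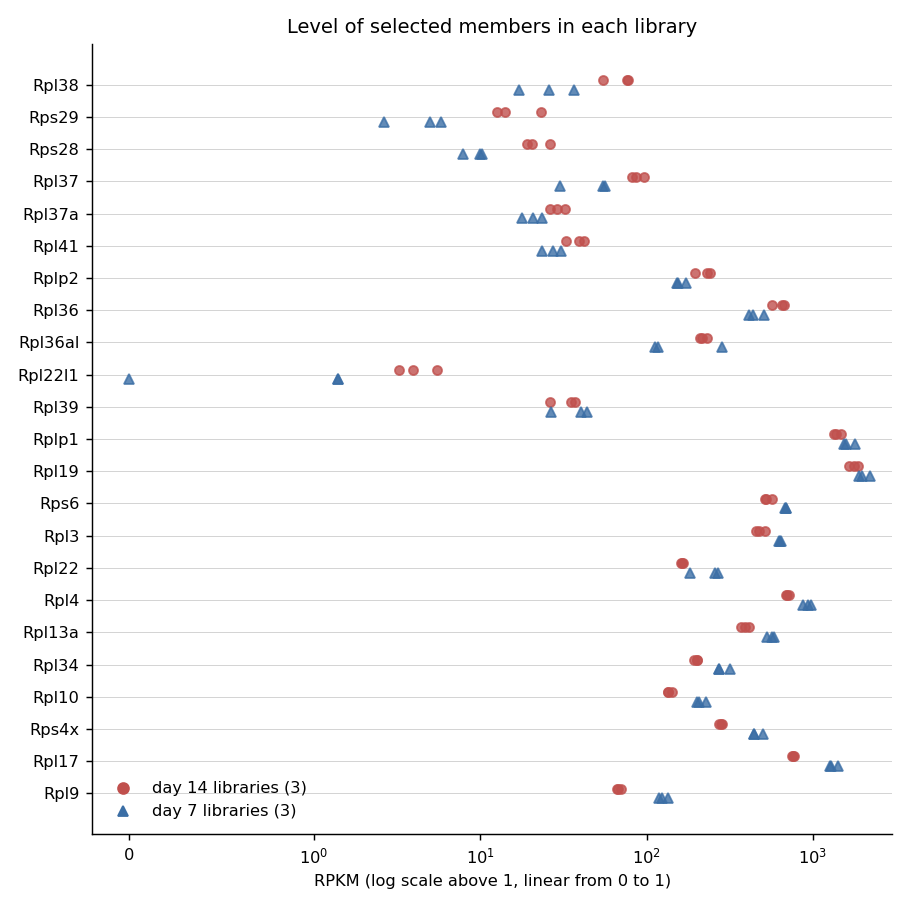
RPKM of selected ribosomal protein genes in each of the 6 libraries (log axis above 1, linear below), with day 14 libraries as circles and day 7 libraries as triangles, with genes of higher day 14 values towards the top and of lower ones towards the bottom. The short genes at the top lie to the right on day 14, Rpl9, Rpl17 and Rps4x at the bottom lie to the left, and Rpl36al and Rpl39 overlap.

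Genes with short coding sequences had values mostly above 0. The classes of coding length used here (under 300 bases, 300 to under 450, 450 to under 600, and 600 or more) were set after the values had been seen. In the 9 tested genes under 300 bases the median log2 fold change was 0.52, with 8 values above 0 and 0 called (3 at an unadjusted p under 0.05, and 1 called higher by limma-voom on recovered reads). It was 0.07 in the 29 genes of 300 to under 450 bases (1 higher, 3 lower), -0.23 in the 19 of 450 to under 600 bases (0 higher, 3 lower) and -0.32 in the 23 of 600 bases or more (0 higher, 8 lower). Among all other tested genes the same classes had medians of 0.35 (95 genes), 0.16 (222), 0.13 (324) and 0.17 (5531). In these classes limma called 6 higher and 4 lower, 7 and 7, 8 and 11, and 74 and 141. Of all 6691 genes tested, 1302 had an unadjusted p under 0.05, and limma-voom called 715 higher and 553 lower. Across the 80 ribosomal protein genes, Spearman's rho between coding length and log2 fold change was -0.52 and Pearson's r with log2 length -0.52. Without the 9 shortest genes rho was -0.36 and r -0.34 (n = 71). Over 6172 other tested genes rho was 0.031 and r 0.032. Most of these (5531) were of 600 bases or more, and their highest class median was also that of the class under 300 bases. These are descriptions across genes, which share libraries and are not independent replicates.

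The relation was there in each pairing of a day 14 with a day 7 library, with rho of -0.50 to -0.38 over the 9 pairings. These pairings share libraries. The same measure within day 14 had rho of -0.41 for replicate 1 over 2, 0.14 for 1 over 3 and 0.38 for 2 over 3, so libraries of 1 day also differed along coding length, by up to a similar rho. Within day 7 it was 0.035 for replicate 1 over 2, -0.14 for 1 over 3 and -0.12 for 2 over 3.

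**Figure D4:**
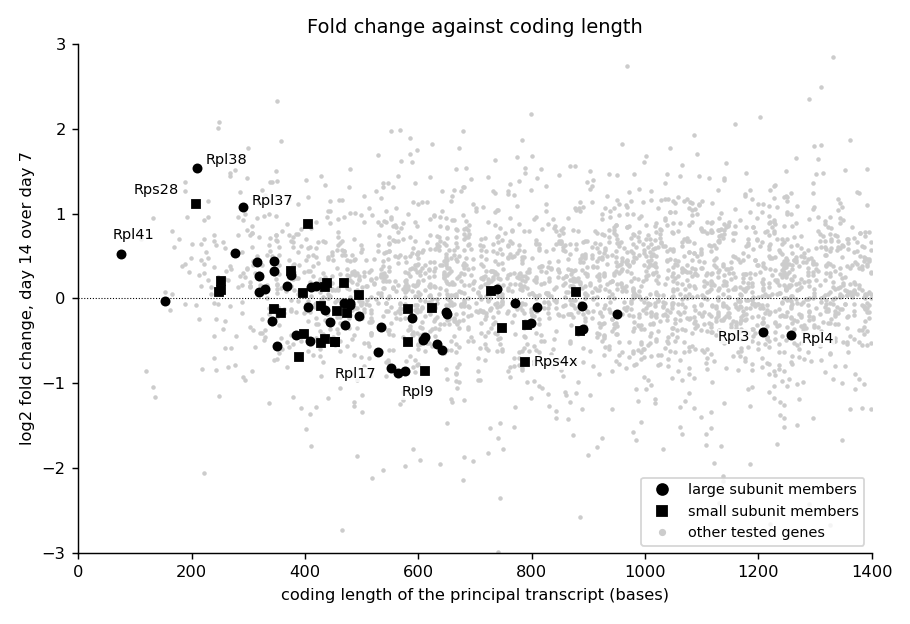
Log2 fold change, day 14 over day 7, against coding length in bases for the 80 tested ribosomal protein genes (circles for the large, squares for the small subunit) and for other tested genes within the axis limits (grey). Ribosomal protein genes under 300 bases lie mostly above 0 (median 0.52) and those of 600 bases or more mostly below (median -0.32). Over 6172 other tested genes of any coding length rho was 0.031. Other genes under 300 bases also had the highest median of their classes (0.35).

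The largest point values belonged to short genes outside the rule by which genes are named, and they are given because of their values. Rpl38, which in mice is needed for translation of Hox mRNAs and for the axial skeleton, had 76.7, 54.9 and 77.2 RPKM on day 14, against 36.6, 25.8 and 17.0 RPKM on day 7 (1.54 ± 0.46, adjusted p = 0.0935). Rps28 had 20.6, 19.2 and 26.3 RPKM on day 14, against 9.94, 7.92 and 10.3 RPKM on day 7 (1.11 ± 0.42, adjusted p = 0.183). Rpl37 had 86.2, 81.6 and 96.6 RPKM on day 14, against 55.9, 55.0 and 30.2 RPKM on day 7 (1.08 ± 0.29, adjusted p = 0.0618). In each of them the day 14 libraries were all above, as in 31.6% of all genes tested, and none passed the test at these settings. All 3 were called higher without weights and with 6 libraries counted singly, which takes day 7 replicates 1 and 2 as separate samples. Rpl37a, Rpl41, Rplp2 and Rpl36 followed with values of 0.53, 0.52, 0.44 and 0.43 and adjusted p of 0.401, 0.413, 0.275 and 0.116. Rps29, another short gene and too low to be tested, had 23.1, 12.5 and 14.1 RPKM on day 14, against 5.79, 4.96 and 2.65 RPKM on day 7, and its adjusted p was 0.373 when no filter was applied.

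The P stalk, the flexible arm of the large subunit that recruits elongation factors, had values on both sides of 0, none of them called by limma at the settings used. Rplp0, its base, had 214, 209.6 and 209.8 RPKM on day 14, against 239.8, 235 and 242 RPKM on day 7 (-0.18 ± 0.14, 95% interval -0.48 to 0.12, adjusted p = 0.498). Rplp1, given above, was at -0.26 with an interval of -0.45 to -0.08. Rplp2 had 231, 194 and 241 RPKM on day 14, against 153, 154 and 173 RPKM on day 7 (0.44 ± 0.21, interval -0.02 to 0.90, adjusted p = 0.275). The libraries of the 2 days did not overlap in any of the 3 genes, with Rplp0 and Rplp1 lower and Rplp2 higher in point value, and the difference between the genes was not tested. Of all genes tested, 17.8% lay all below and 31.6% all above on day 14. Other settings called some of them: Rplp2 was called higher by limma-voom (adjusted p = 0.0341), with the replicate block (0.0347) and without a filter (0.0434), and Rplp1 lower under median-of-ratios scaling (0.0145) and with the block (0.0452). The block counts day 7 replicates 1 and 2 as separate samples, which makes its p-values too small if they are not.

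Paralogues were mostly low beside their partners. Rpl22l1 had 5.48, 3.92 and 3.25 RPKM on day 14, against 1.39, 1.40 and 0 RPKM on day 7. Its partner Rpl22, which in mice is needed for development of alpha-beta T cells and represses Rpl22l1, had 162, 160.3 and 164 RPKM on day 14, against 269, 259 and 183 RPKM on day 7. The days did not overlap in either gene, Rpl22l1 being above and Rpl22 below on day 14. Of all genes tested, 31.6% were above and 17.8% below in this way. Rpl22l1 was 3.26%, 2.39% and 1.94% of the pair on day 14 and 0.513%, 0.539% and 0% on day 7. Rpl22 did not pass the test (-0.43 ± 0.16, adjusted p = 0.176; 0.0306 by limma-voom), and Rpl22l1 was below the filter, with a log2 fold change of 1.73 ± 0.49 and an adjusted p of 0.098 when no filter was applied.

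Rpl36al had 229, 209 and 215 RPKM on day 14, against 117, 112 and 284 RPKM on day 7, and its partner Rpl36a had 158, 132 and 147 RPKM on day 14, against 160.4, 146 and 124 RPKM on day 7. Day 7 replicate 3 stood above all other libraries for Rpl36al, and the day 14 libraries lay between the day 7 libraries (0.27 ± 0.26, adjusted p = 0.619). Without day 7 replicate 3, which leaves 1 day 7 sample, the log2 fold change was 0.92. Rps27l, a p53-responsive paralogue of Rps27, had 24.9, 35.9 and 25.6 RPKM on day 14, against 26.8, 27.4 and 22.2 RPKM on day 7, while Rps27 had 42.4, 31.4 and 44.2 RPKM, against 39.9, 39.9 and 33.2 RPKM. Rpl7l1, a nucleolar relative of Rpl7, was 9.97% to 10.5% of the pair on day 14 and 7.52% to 10.5% on day 7, and neither it (0.11 ± 0.25) nor Rpl7 (-0.10 ± 0.12) passed the test. Rpl39, partner of the testis gene Rpl39l, had 35.2, 26.3 and 37.2 RPKM on day 14, against 43.8, 40.3 and 26.5 RPKM on day 7. Rpl39l, Rpl3l (the muscle paralogue of Rpl3) and Rps4l were at 0 in 5, 3 and 3 of the 6 libraries and at most 0.383, 0.962 and 3.58 RPKM in the others. Rps27rt, a retrocopy of Rps27, had 6.58, 6.81 and 7.63 RPKM on day 14, against 3.35, 6.89 and 0.82 RPKM on day 7.

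Retrocopies and pseudogenes share nearly the same sequence with their source genes, so reads may be divided between them, and values of source genes and copies are uncertain to that degree. The 154 models named -ps took 2.48% to 2.68% of all reads in ribosomal protein genes and these models on day 14 and 2.60% to 3.04% on day 7. Of 14 that were tested limma called 0, with 5 at an unadjusted p under 0.05 and 2 called lower by limma-voom on recovered reads. Over all 6691 genes tested, 1302 were at such a p and 553 were called lower by limma-voom. Of the 91 genes, 25 share exon bases with another model on the same strand, Snora and Snord small nucleolar RNAs among them, and 17 with a model on the opposite strand. Among called genes these include Rpl10 (Snora70), Rpl13a (Snord33), Rpl4 (Snord16a), Rpl3 and Rpl5, where reads of the neighbour could be included. Rps19bp1, which is no ribosomal protein, had 109, 81.7 and 94.0 RPKM on day 14, against 151, 167 and 117 RPKM on day 7, without overlap and without a call (-0.53 ± 0.24, adjusted p = 0.262).

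The sequence around the annotated start is shown, from the RefSeq promoter table (GRCm38.p6), for 11 of the called genes and for the 3 short genes with the highest values, since the terminal oligopyrimidine tract is the shared feature of these mRNAs. Each window holds the 10 bases before the start and the 15 bases from the start on, and was searched on the transcribed strand; capitals mark a C followed by 4 or more bases that are C or T, beginning within 10 bases of the start. The called decreases come first, in order of fold change, and the short genes after them.
Rpl9 (chr5:65391417-65391441, minus strand): gggccctgacggattacaagaacgt
Rps4x (chrX:102189377-102189401, minus strand): gctgggcggagcaacccaggctcca
Rpl10 (chrX:74270806-74270830, plus strand): tacagtggaagataggccgcctata
Rpl34 (chr3:130730384-130730408, minus strand): tccctgacgtaCTTCCTgtccggcg
Rpl13a (chr7:45128731-45128755, minus strand): cctgcgacaagaCCTCCTCCTTTCC
Rps15 (chr10:80292421-80292445, plus strand): cagagctcgcgataactgcgcaagc
Rpl4 (chr9:64173377-64173401, plus strand): tttcctgtgggagcagccgggtaga
Rps24 (chr14:24490668-24490692, plus strand): gctggggtCCTTCCTTgcgcgttga
Rpl5 (chr5:107900518-107900542, plus strand): cgtcgcttgcgtgctggtggtgcta
Rps6 (chr4:86857353-86857377, minus strand): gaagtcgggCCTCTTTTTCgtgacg
Rps3a1 (chr3:86142654-86142678, minus strand): gccggaagggcgaaagagcaagggt
Rpl38 (chr11:114668570-114668594, plus strand): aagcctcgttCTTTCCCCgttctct
Rps28 (chr17:33824548-33824572, minus strand): cgcgtgcggtctcgcgagagcgaaa
Rpl37 (chr15:5116603-5116627, plus strand): cctgggcggaagcttatccacagga

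Tracts were marked in Rpl34, Rpl13a, Rps24 and Rps6 among the 11 called genes shown and in Rpl38 among the 3 short genes, so genes on either side of 0 had one. A tract was found in 41 of 78 listed ribosomal protein promoters (66 of the 91 symbols were listed, some with several starts), which is 52.6% against 30.7% of all 32851 promoters of the table. One that began exactly at the annotated start base was found in 14 of these promoters, 17.9% against 2.51% of all. Annotated starts need not be the starts used in these cells, and a window without capitals says only that these letters are not in it. The 32 tested genes with a tract at their first listed start had a median log2 fold change of -0.13 with 4 called lower, and the 29 without one had -0.31 with 7 called lower. Of all 6691 genes tested, 3.18% were called lower.

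Other genes of the translation machinery, from lists of named genes, are given beside the ribosomal proteins. Of all 6691 genes tested limma called 114 higher and 213 lower, and limma-voom called 715 higher and 553 lower. The 9 elongation factors had 1 of 7 tested called lower and 0 higher, with a median of -0.08, and limma-voom called 2 lower. The called gene was Eef1a1, which brings aminoacyl-tRNA to the ribosome: it had 2006, 2022 and 1889 RPKM on day 14, against 2456, 2403 and 2569.5 RPKM on day 7 (-0.34 ± 0.07, adjusted p = 0.0235). Of 18 other mRNAs known to carry the tract, 0 were called higher and 2 lower, with a median of -0.07, and limma-voom called 1 higher and 3 lower. The 2 called by limma were Eef1a1 again and Tpt1, a growth-related protein gene, which had 761, 746 and 738 RPKM on day 14, against 938, 969 and 1073 RPKM on day 7 (-0.43 ± 0.07, adjusted p = 0.00643). In both the days did not overlap.

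Initiation factors, biogenesis factors and mitochondrial ribosomal proteins had medians above 0, as had all genes tested (0.16). Of 36 tested initiation factors 1 was called higher and 0 lower, with a median of 0.19, and limma-voom called 5 higher and 1 lower. Eif3a, the scaffold of the eIF3 complex, had 898, 873 and 925 RPKM on day 14, against 718, 699 and 685 RPKM on day 7 (0.37 ± 0.09, adjusted p = 0.0394), and all its day 14 libraries were above the day 7 libraries. Of 51 tested ribosome biogenesis genes limma called 0 (8 at an unadjusted p under 0.05, and 4 higher and 1 lower by limma-voom), with a median of 0.24. Over all 6691 genes tested, 1302 had an unadjusted p under 0.05. Of 40 tested mitochondrial ribosomal protein genes limma called 0 (5 at an unadjusted p under 0.05, and 1 higher by limma-voom), with a median of 0.26. Summed levels of the mitochondrial ribosomal protein genes were 1157 ± 48.0 RPKM on day 14 and 1027 ± 94.4 RPKM on day 7 (SD, n = 3 and n = 2). Of 17 tested regulators of ribosomal protein synthesis limma called 0 (1 at an unadjusted p under 0.05, and 2 higher by limma-voom), with a median of 0.18. Myc, a transcription factor that drives ribosome production, had 8.34, 9.79 and 7.32 RPKM on day 14, against 7.67, 9.48 and 7.45 RPKM on day 7, with full overlap. The calls of Eef1a1, Eif3a and Tpt1 were lost without day 7 replicate 3, with 1 day 7 sample left (log2 fold changes -0.30, 0.34 and -0.35). Those of Eef1a1 and Eif3a were also lost without a filter (0.219 and 0.0524) and without any 1 of the day 14 libraries (0.0577 to 0.102 for Eef1a1 and 0.0632 to 0.0917 for Eif3a). Under median-of-ratios scaling Eif3a was at 0.22 and not called (0.225).

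**Figure D5:**
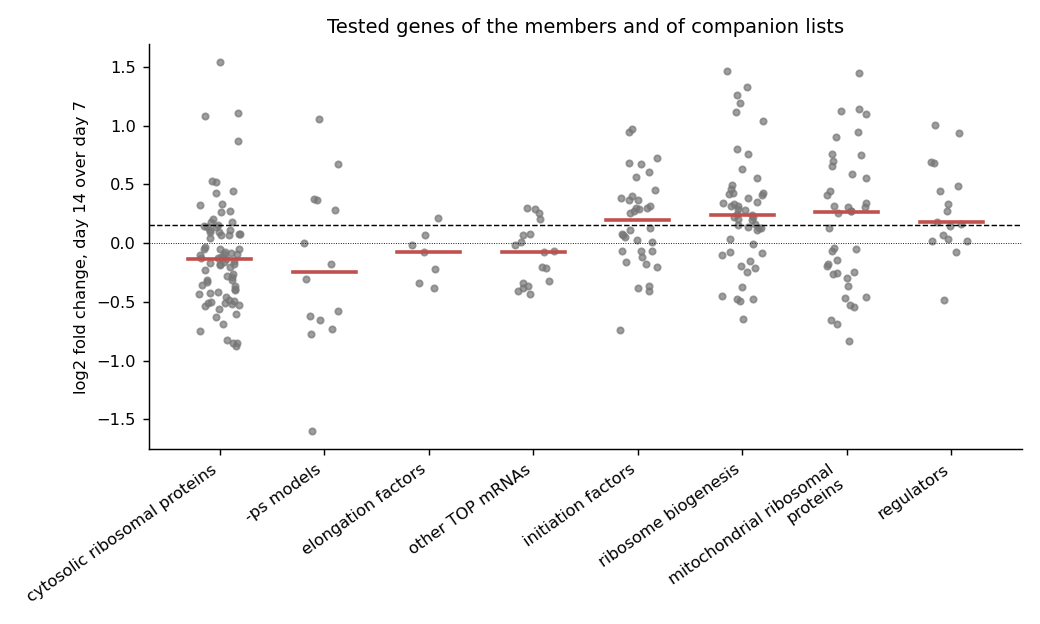
Log2 fold change, day 14 over day 7, of the tested genes of each list, with 1 point per gene, a solid line at the list's median, a dashed line at the median of all genes tested (0.16) and a dotted line at 0. Cytosolic ribosomal proteins (-0.14), the -ps models (-0.24), elongation factors (-0.08) and other tract mRNAs (TOP, -0.07) have medians below 0, and initiation factors (0.19), biogenesis genes (0.24), mitochondrial ribosomal proteins (0.26) and regulators (0.18) have medians above the dashed line.

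Fau, outside the naming rule, was not called. The gene encodes Rps30 and had 594, 480.0 and 588 RPKM on day 14, against 635, 624 and 616 RPKM on day 7, lower in each library (-0.18 ± 0.12, adjusted p = 0.474). Rps27a, which encodes a ribosomal protein fused to ubiquitin and is among the 91, had 59.1, 56.7 and 64.1 RPKM on day 14, against 61.2, 64.0 and 44.6 RPKM on day 7, with overlap (0.18 ± 0.24, adjusted p = 0.731).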

How the data were processed

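Poly-A, strand-marked RNA libraries with molecular identifiers were made and sequenced with paired reads, per the labels' protocols. The submitters' processing notes name Trimmomatic 0.36, featureCounts, Subread 1.5.1 and the build GRCm38. For the aligner, the strand setting and any use of the identifiers: not given in the sources used here. The authors deposited RPKM per gene with the gene length. Multiplying RPKM by length gave whole reads in every gene (largest deviation 3.4e-05 reads), which gave the depths. Intervals cover counting and replicate spread of these libraries only.

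limma 3.58.1 in R 4.3.3 was fitted to log2(RPKM + 1) with the day as the coefficient, over the 6691 genes whose mean CPM reached 20. The fold change understates changes of low genes because of the pseudocount of 1. Day 7 replicates 1 and 2 were averaged. Each day's weights were the inverse of its variance as smoothed over expression by loess (span 0.3, minimum 0.005). A trended prior was used, with Benjamini-Hochberg adjustment, called at an adjusted p under 0.05. The fit was also run on simulated data. Changes planted there were all larger than those of the called ribosomal protein genes, so that run does not speak to changes of their size. Coding lengths came from GENCODE M21.

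Genes described singly were, by rule, called genes with the 8 largest changes each way, the 5 highest, paralogues with partners, stalk genes with Rpsa and Rps6, Rps19bp1, Fau, and up to 3 called genes per list; others were added after their values were seen. Some genes that the rule takes are not reported here. Members, lists and settings were chosen with earlier results of these data known. Alternatives were another pseudocount, 2 filters, no weights, 6 single libraries, a replicate block, median-of-ratios scaling, limma-voom on recovered reads, and each library left out. Same-numbered libraries did not deviate together, so they were not paired.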

Additional observations from a re-analysis of the deposited data

How the results depend on the processing

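Counts of ribosomal protein genes called on day 14 (higher, lower) and of all genes (higher, lower) changed with the settings, and the cause was not tested. Without a filter they were 2 and 15, and 1181 and 284. With a filter of 1 RPKM in 2 samples they were 1 and 17, and 1156 and 325. Without weights they were 4 and 21, and 601 and 410. With 6 libraries counted singly they were 5 and 27, and 916 and 647. The replicate block with 6 single libraries gave 5 and 21, and 610 and 541. Deviations of same-numbered libraries from their day means correlated at -0.014, -0.015 and -0.034. That shows no pairing by number, but with 3 libraries per day it cannot exclude one. Median-of-ratios scaling gave 0 and 21, and 65 and 286, with a ribosomal protein median of -0.28 and a summed log2 difference of -0.37. limma-voom on recovered reads, all of them whole to within 3.4e-05, gave 3 and 27, and 715 and 553. Leaving out 1 library gave 0 to 2 and 1 to 14, and 45 to 114 and 90 to 218, with a median of -0.17 to -0.10. The summed level stayed lower on day 14 with each library left out. Scaling to the summed RPKM of all genes was not run. All 14 decreases stayed called under 6 settings: pseudocount 0.1, the RPKM filter, single libraries, the block, rescaling and voom. Of these, single libraries and the block count day 7 replicates 1 and 2 as separate samples, though they differed by little more than sampling noise.

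Signs turned for small, uncalled differences. Under median-of-ratios scaling Rpl7l1 was at -0.033, Rpl36a at -0.073 and Rps27 at -0.050. Leaving out 1 library gave -0.17 to 0.16 for Rpl7l1, -0.076 to 0.14 for Rpl36a and -0.036 to 0.24 for Rps27. It gave -0.12 to 0.014 for Rps23, -0.11 to 0.077 for Rpl23a and -0.36 to 0.11 for Rpl39. The sign turned without day 7 replicate 3 for all of these but Rpl39, and without day 14 replicate 2 for Rpl39 and, at 0.0079, for Rpl23a. Over the 33 named and tested genes, 390 of 462 values under 14 settings kept their direction and side of the threshold. Genes not called in the main fit count here by staying uncalled, so this count does not measure how firmly calls hold. Of the other values, 44 lost a call, 18 gained one and 10 turned sign. The 2 day 7 samples limit each test, and without day 7 replicate 3 the lone day 7 sample is assumed to vary like the others. Its weights in that fit still came from the day 7 spread that includes the left-out library.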
